A study of Mus musculus with 8 samples.

Results

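The genes described here are 39 imprinted genes of the mouse autosomes, chosen by symbol from a list and ordered by the imprinted cluster in which they lie. All 39 were found among the 23420 gene symbols of the count tables, and all 39 had reads in some library and so belonged to the 19424 genes tested. Over the 4 groups, 33 of them had a mean of at least 1 CPM (reads of the gene scaled to the size of the library), and *Airn*, *Rtl1*, *Snrpn*, *Zim1*, *Usp29* and *Asb4* lay below it.

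RNA-seq of mouse embryonic stem cells (mESCs) compared IPO13+/+ (wild type, WT) with IPO13-/- (knockout, KO) cells, IPO13 being a transporter that carries proteins into and out of the nucleus. Each genotype was sequenced without treatment (no stress, NS) and after stress (ST) with 125 uM H2O2 for 1 h and 2 h of recovery in fresh medium, so that WT-NS, WT-ST, KO-NS and KO-ST held 2 libraries each. All groups are of a 129 x C57BL/6 background, are labelled as embryonic stem cells from preimplantation blastocysts of day 5, and grew without feeder cells on gelatin in medium with LIF. Between 60397877 and 73789079 reads per library were counted on genes, so that 3 counts, taken as the smallest level told from 0, stood for 0.0407 to 0.0497 CPM, which covers counting error only. Each genotype is described as an established line, and no label says how many lines or clones stand behind the libraries of a group. A difference in imprinting between lines and an effect of the loss of IPO13 therefore cannot be told apart, and p-values measure the spread between libraries, which may be technical. *Ipo13* itself lay at 68.3 to 72.4 CPM in the 4 IPO13+/+ libraries and at 24.9 to 25.9 CPM in the 4 IPO13-/- libraries, in the order that the labels give. The 10 pluripotency markers examined summed to 8048.5 to 8217.2 CPM in WT-NS and 7655.6 to 7696.2 in WT-ST. Their sums were lower in every IPO13-/- library, with 6862.9 to 6976.6 CPM in KO-NS and 6790.3 to 6893.7 in KO-ST. None of the 10 was called between genotypes, against 4.71% and 4.56% of all genes in untreated and treated cells. At a false discovery rate below 0.05 without a 2-fold limit, 2 were higher and 5 lower in KO-NS, against 18.7% and 19.4% of all genes. In KO-ST 0 were higher and 3 lower, against 19.1% and 17.5%. For 2 of the 10 the response to stress differed between the genotypes at that rate, against 2.71% of all genes. Of the 8 feeder or fibroblast markers, 3, *Col3a1*, *Postn* and *Lum*, had at most 3 counts in every library.

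Imprinted genes are expressed mainly from the allele of 1 parent, because an imprinting control region of each cluster is methylated in the egg or the sperm and keeps that mark in the embryo. Within a cluster, genes of opposite parental origin are often tied to each other. This can be through a shared enhancer with an insulator between them, as at *H19* and *Igf2*. It can also be through a long non-coding RNA whose transcription or product silences neighbours on its own chromosome, as with *Airn* and *Kcnq1ot1*. Many of the proteins regulate growth of the fetus and the placenta, and ESC lines are known to lose or gain imprints in culture. The reads were counted per gene and not per allele, so a higher level from the active allele and activity of the silent allele cannot be told apart. As in any bulk sample, a change in the RNA per cell cannot be told apart from a change in the share of cells that express a gene.

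Expression in IPO13-/- cells differed in both directions within the imprinted clusters, and the differences were mostly under 2-fold. *H19*, a maternal non-coding RNA, was 2.68-fold higher in KO-NS than in WT-NS and was the only gene of the 39 called in either genotype comparison at a false discovery rate (FDR) below 0.05 and a change of at least 2-fold. *Igf2r*, *H13* and *Gnas* were also higher in all 4 IPO13-/- libraries, and *Igf2*, *Ddc*, *Meg3*, *Rian* and *Zrsr1* were lower in all 4. After stress, *Peg12* fell in both genotypes and was the only call, in IPO13-/- cells. The response to stress of *Impact*, *Phlda2* and *Mirg* differed between the genotypes in the main fit, though not in every alternative. The deviation of every library from the WT-NS mean is drawn in the heat map of the 33 genes with a mean of at least 1 CPM.

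**Figure D1:**
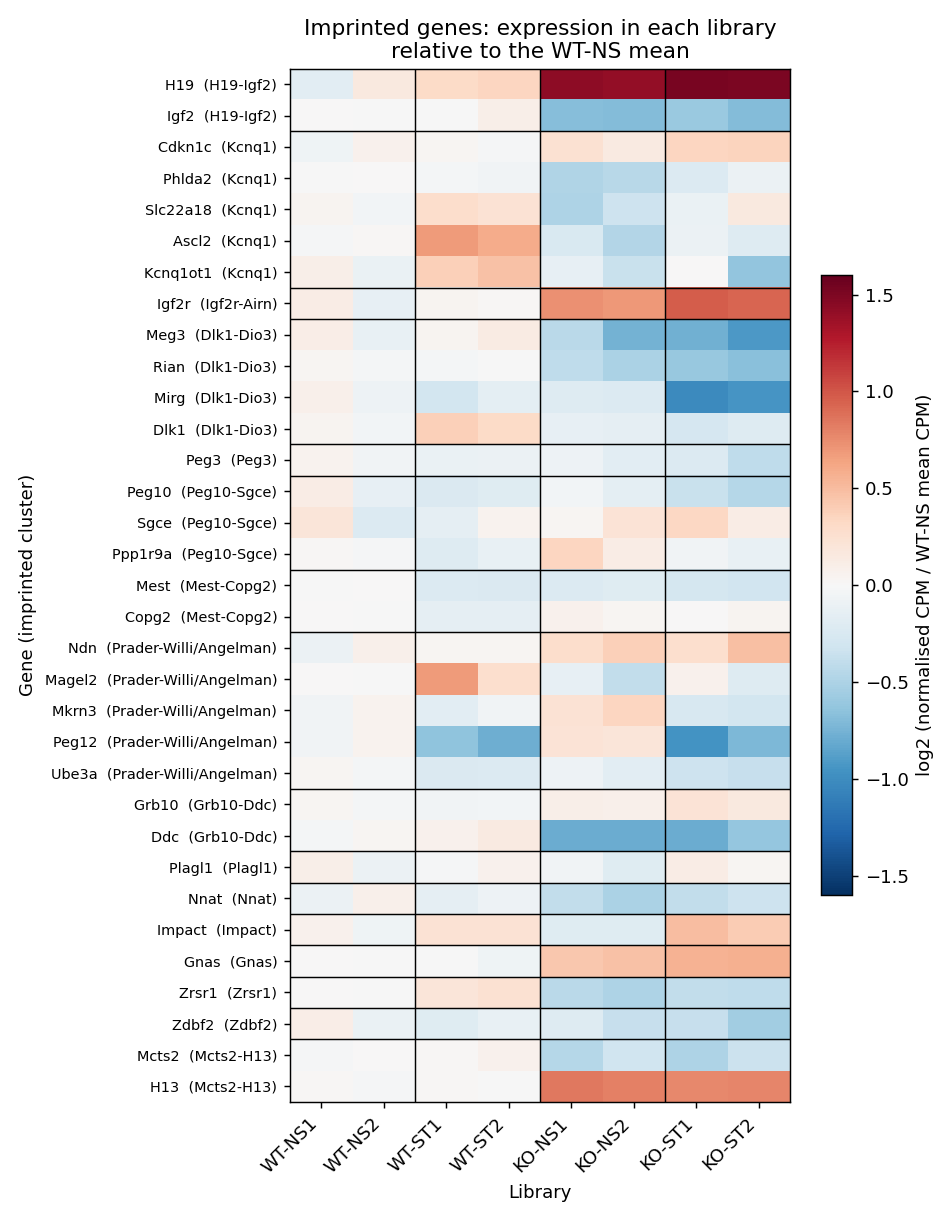
Each row is an imprinted gene with its cluster, each column a library, and the colour is the log2 ratio of the normalised CPM to the WT-NS mean of that gene. *H19*, *Igf2r*, *Gnas* and *H13* are above 0 in all 4 KO columns, *Igf2*, *Meg3*, *Rian* and *Ddc* are below 0 there, and *Peg12* is below 0 in the 4 ST columns.

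The bases before the start of 5 genes are shown, chosen among the 33 of the 39 genes with an entry in the RefSeq table. Among the genes with a mean of at least 1 CPM, *Igf2r* and *H13* were the most raised after *H19* in both genotype comparisons, *Mcts2* lies inside *H13* and went the other way, *Meg3* had the largest fall in treated cells, and *Peg12* was the call after stress. *H19*, *Impact*, *Peg10*, *Cdkn1c*, *Rtl1* and *Sgce* had no entry. They are the 250 bases before the RefSeq start on GRCm38.p6, written 5′ to 3′ along the gene, and for *Mcts2* the 137 of them that lie outside its annotated exon. Capitals mark the GC box GGGCGG, the core of the site that SP1 and related factors bind, and the hexamer TGCCGC, which the imprint-keeping zinc-finger protein ZFP57 binds when it is methylated, each on either strand.
Igf2r, chr17:12769707-12769956, minus strand: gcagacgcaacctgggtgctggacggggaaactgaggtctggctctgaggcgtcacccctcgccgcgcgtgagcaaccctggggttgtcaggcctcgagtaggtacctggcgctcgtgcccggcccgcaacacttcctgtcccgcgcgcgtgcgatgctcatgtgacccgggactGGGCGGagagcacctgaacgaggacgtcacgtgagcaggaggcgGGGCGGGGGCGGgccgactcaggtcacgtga
H13, chr2:152669211-152669460, plus strand: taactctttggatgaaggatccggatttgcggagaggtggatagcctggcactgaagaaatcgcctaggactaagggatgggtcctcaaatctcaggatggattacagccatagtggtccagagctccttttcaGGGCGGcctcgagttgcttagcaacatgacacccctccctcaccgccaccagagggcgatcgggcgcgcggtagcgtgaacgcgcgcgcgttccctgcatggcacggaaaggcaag
Mcts2, chr2:152686898-152687034, plus strand: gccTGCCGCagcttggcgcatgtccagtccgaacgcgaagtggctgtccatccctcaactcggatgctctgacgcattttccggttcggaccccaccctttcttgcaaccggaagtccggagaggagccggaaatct
Meg3, chr12:109540746-109540995, plus strand: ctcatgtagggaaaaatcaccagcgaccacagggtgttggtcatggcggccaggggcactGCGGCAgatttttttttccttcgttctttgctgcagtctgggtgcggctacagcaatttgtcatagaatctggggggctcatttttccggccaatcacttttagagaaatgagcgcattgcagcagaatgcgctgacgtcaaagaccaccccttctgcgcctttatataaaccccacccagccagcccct
Peg12, chr7:62464511-62464760, minus strand: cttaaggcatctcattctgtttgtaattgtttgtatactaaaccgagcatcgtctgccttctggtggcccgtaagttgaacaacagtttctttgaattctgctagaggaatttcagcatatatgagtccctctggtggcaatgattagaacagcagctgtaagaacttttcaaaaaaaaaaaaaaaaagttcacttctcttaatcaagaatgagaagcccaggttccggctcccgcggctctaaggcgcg
The *Igf2r* promoter held 3 GC boxes and that of *H13* 1, *Mcts2* and *Meg3* held 1 hexamer each, and the *Peg12* promoter held neither. Of all 32851 promoters in the RefSeq table, 32.7% held a GC box and 8.68% held the hexamer in the 250 bases before the start. Among 50 promoters of the 33 imprinted genes with an entry, 22 (44.0%) held a GC box and 8 (16%) held the hexamer. The shares are a description of these letters alone, and genes with several starts count more than once.

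Levels between genes were compared as CPM per kilobase of annotated exon. In WT-NS, *Peg10*, which codes for a retrotransposon-derived protein needed by the placenta, had the highest level with 77.1 CPM per kb. *Phlda2* followed with 40.7, *Impact* with 26.5, *Mest* with 25.8 and *Mcts2* with 23.8 CPM per kb. The lowest levels were those of *Airn* with 0.008 and *Rtl1* with 0.012 CPM per kb. *Airn*, whose transcription silences *Igf2r* on the paternal chromosome, is known to be nearly off in undifferentiated ESCs. It had 2 and 2 counts in WT-NS, 3 and 0 in WT-ST, 4 and 4 in KO-NS and 0 and 1 in KO-ST. *Rtl1*, a retrotransposon-derived gene of the placenta, had between 0 and 8 counts, and *Snrpn*, which codes for a protein of the splicing machinery, between 6 and 11. No fold change is given for these 3 genes, whose levels lie close to the counting floor, and none of the tests reached an FDR below 0.05 in them. The exons of *Snrpn* and *Snurf* overlap, and *Snurf* had 0 to 4 counts. How reads on shared exons were counted is not given in the sources used here.

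The comparison of genotypes asked how the RNA of untreated and of treated cells differs without IPO13. In KO-NS against WT-NS, 1 of the 39 genes was called, against 4.71% of all genes tested, and in KO-ST against WT-ST 1 was called, against 4.56%. Without KO-ST replicate 1, *Meg3* and *Kcnq1ot1* were called lower as well, which makes 3. Without the 2-fold limit, 23 of the 39 (59.0%) passed an FDR of 0.05 in KO-NS, against 38.2% of all genes, with 9 higher (18.7% of all genes were) and 14 lower (19.4%). In KO-ST 25 of the 39 (64.1%) passed, against 36.6% of all genes, with 9 higher (19.1%) and 16 lower (17.5%). Well expressed genes pass this test more often, and among the genes with a mean of at least 1 CPM the shares were 69.7% of 33 imprinted genes against 53.5% of 12198 genes in untreated cells, and 75.8% against 50.9% in treated cells. As a median the 39 genes lay at -0.14 on the log2 scale in untreated and at -0.19 in treated cells, and all genes at 0.00 in each. Between the 4 IPO13-/- and the 4 IPO13+/+ libraries, 8 of the 39 genes were higher without overlap, against 15.7% of all genes, and 11 were lower without overlap, against 13% of all genes. The 8 were *H19*, *Cdkn1c*, *Igf2r*, *Copg2*, *Ndn*, *Grb10*, *Gnas* and *H13*, and the 11 were *Igf2*, *Phlda2*, *Ascl2*, *Meg3*, *Rian*, *Dlk1*, *Ddc*, *Nnat*, *Zrsr1*, *Zdbf2* and *Mcts2*. The comparisons in untreated and in treated cells share no library, and in both of them 6 genes passed as higher and 10 as lower, against 13.9% and 12.5% of all genes. The shares by direction, without overlap and in both comparisons were taken over all genes only, and not over those with a mean of at least 1 CPM.

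**Figure D2:**
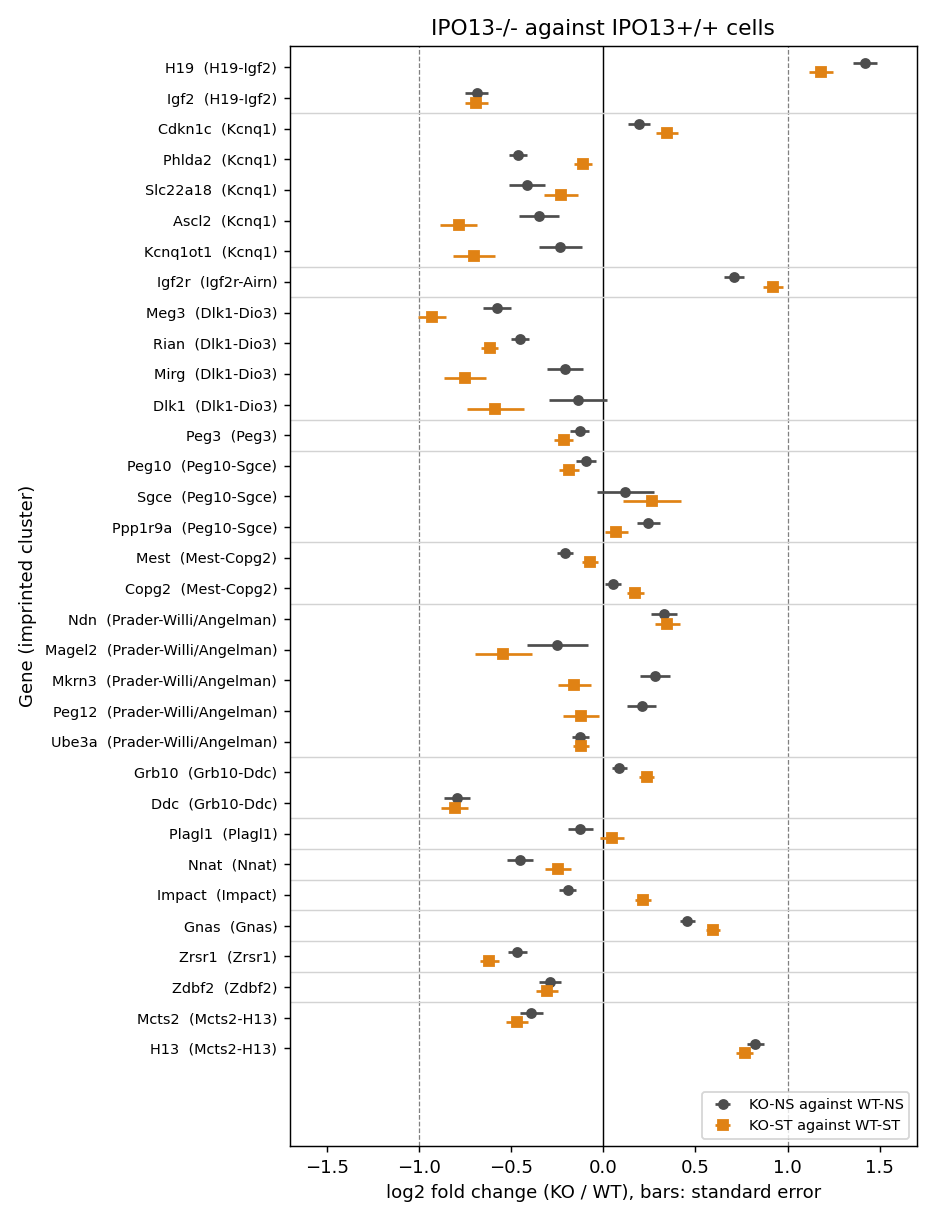
Points are log2 fold changes of IPO13-/- against IPO13+/+ cells in untreated (circles) and treated (squares) cells, with bars of 1 standard error, and dashed lines mark a 2-fold change. Only *H19* lies beyond a dashed line, and *Mkrn3*, *Peg12*, *Plagl1* and *Impact* have their circle and square on opposite sides of 0.

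In the *H19*-*Igf2* cluster on chromosome 7, the maternal RNA was higher and the paternal growth factor lower in IPO13-/- cells. *H19* had 760 and 993 counts in WT-NS, 1073 and 1123 in WT-ST, 2607 and 2107 in KO-NS, and 2358 and 2239 in KO-ST. After normalisation these are 12.8 ± 2.01 CPM (SD, n = 2) in WT-NS, 16 ± 0.337 in WT-ST, 34.2 ± 0.343 in KO-NS and 36.3 ± 0.157 in KO-ST. The lowest IPO13-/- library was at 33.9 CPM and the highest IPO13+/+ library at 16.2 CPM. The log2 fold change was 1.42 ± 0.07 (SE, FDR = 1.6e-15) in untreated and 1.18 ± 0.07 (SE, FDR = 5.9e-14) in treated cells, by edgeR's quasi-likelihood test. *Igf2* had 17.9 and 17.9 CPM in WT-NS, 17.9 and 19.1 in WT-ST, 11.2 and 11.1 in KO-NS, and 11.9 and 11.1 in KO-ST. Its level was thus lower by 37.9% in both comparisons, and the log2 fold change was -0.69 ± 0.06 (SE) with an FDR of 8.5e-10 in untreated and 8.7e-10 in treated cells. *Mir675*, the microRNA inside the *H19* exons, had 0 counts in every library. These are mRNA libraries, and how reads on shared exons were counted is not given, so the count does not show the level of the microRNA. A gene model not counted here, *Gm49394*, covers 62.8% of the *Igf2* exons on the same strand.

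**Figure D3:**
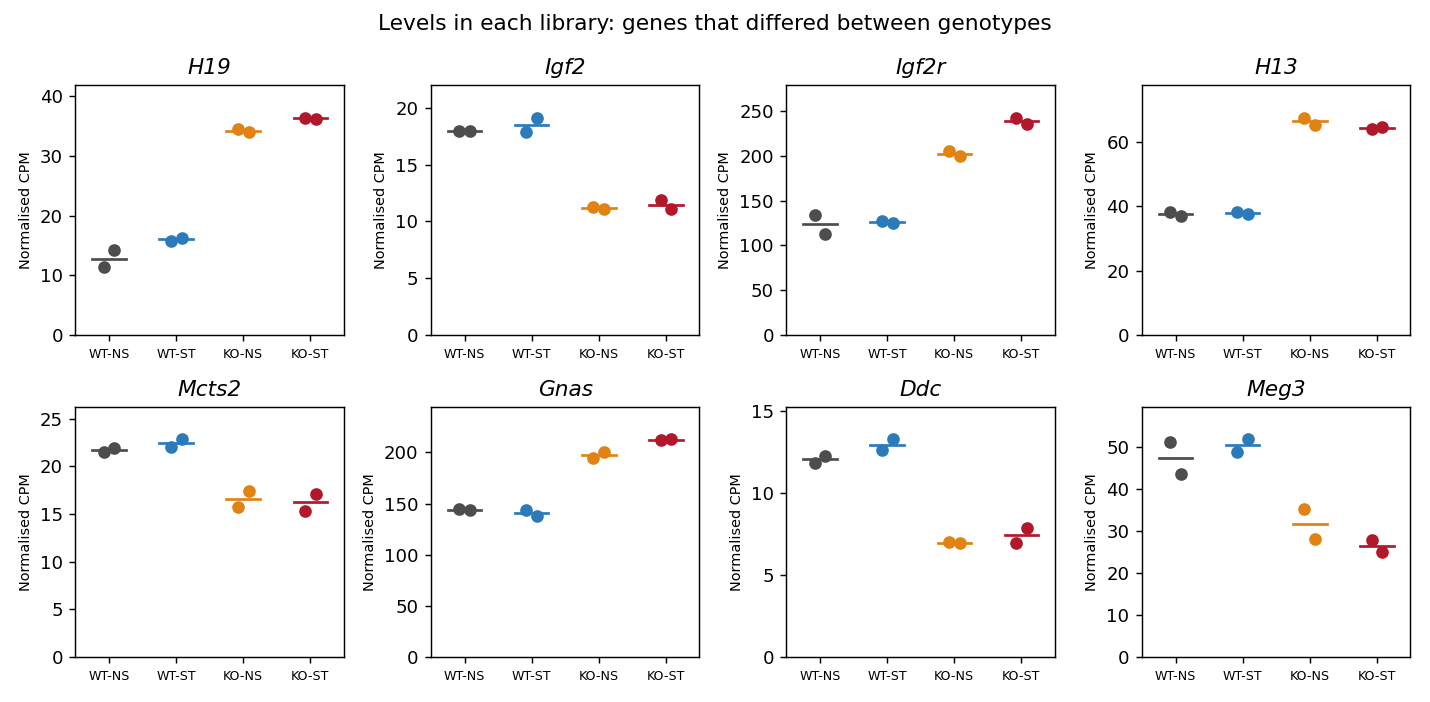
Normalised CPM of 8 imprinted genes in each library (points, 2 per group) with the group mean (line), each axis starting at 0. The KO points lie above all WT points for *H19*, *Igf2r*, *H13* and *Gnas* and below them for *Igf2*, *Mcts2*, *Ddc* and *Meg3*.

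In the *Kcnq1* cluster next to it, the maternal genes did not move together. *Cdkn1c*, an inhibitor of cyclin-dependent kinases, was higher in IPO13-/- cells, by 0.20 ± 0.06 (SE, FDR = 0.0094) on the log2 scale in untreated and by 0.34 ± 0.06 (FDR = 2.9e-05) in treated cells. *Phlda2*, which restrains growth of the placenta, was lower by 27.5% in untreated cells, with a log2 fold change of -0.46 ± 0.05 (FDR = 1.9e-08), and differed by -0.11 ± 0.05 in treated cells, which did not pass (FDR = 0.084). *Ascl2*, a transcription factor of trophoblast progenitors, had 3.01 and 3.11 CPM in WT-NS, 4.92 and 4.60 in WT-ST, 2.57 and 2.21 in KO-NS, and 2.87 and 2.65 in KO-ST. Its gap between genotypes was wider in the treated cells, with -0.78 ± 0.10 (FDR = 3.7e-07) against -0.35 ± 0.11 (FDR = 0.012) in untreated cells, but the difference between these values did not pass (interaction FDR = 0.12). *Slc22a18*, a transporter-like gene, was lower in untreated cells, at -0.41 ± 0.10 on the log2 scale (FDR = 0.0012, and FDR = 0.051 in treated cells). *Kcnq1ot1*, the paternal non-coding RNA of the cluster, was lower in KO-ST than in WT-ST, with -0.70 ± 0.11 (FDR = 1.5e-05), and differed by -0.23 ± 0.12 in untreated cells (FDR = 0.12). The 2 KO-ST libraries of *Kcnq1ot1* stood apart at 8.09 and 5.22 CPM, with 524 and 323 counts.

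Because several genes of this cluster are known from the placenta, trophoblast markers were read beside them. Of 7 markers tested, *Krt7* was called lower in KO-NS, with -1.08 ± 0.14 (FDR = 4.3e-07), and none was called in KO-ST. Without the 2-fold limit, 2 of the 7 passed as higher and 2 as lower in each of these comparisons. Their summed level was 23.2 to 26.4 CPM in WT-NS, 19.1 to 20.5 in WT-ST, 19.5 to 20.6 in KO-NS and 15.3 to 16.5 in KO-ST, and none of the 7 was at 0 in every library. Feeder or fibroblast markers summed to 7.72 to 7.79 CPM in WT-NS, 8.74 to 9.44 in WT-ST, 6.44 to 7.70 in KO-NS and 8.06 to 8.92 in KO-ST. Of the 8, 1, *Col1a1*, was called lower in both comparisons, with -1.07 and -1.41 on the log2 scale. Without the 2-fold limit, 0 of the 8 passed as higher and 2 as lower in KO-NS, and 2 and 1 in KO-ST. Their median was 0.49 and 0.36, though 3 of the 8 had at most 3 counts in every library. Primitive endoderm markers summed to 18.9 to 25.9 CPM over all libraries with none of 8 called between genotypes. Neural markers summed to 152 to 155 CPM in WT-NS and to 167 to 168 in KO-NS, with *Pax6* called higher in both genotype comparisons and *Sox1* lower in treated cells. Of all genes, 4.71% were called in KO-NS and 4.56% in KO-ST. Without the 2-fold limit, 18.7% passed as higher and 19.4% as lower in KO-NS, and 19.1% and 17.5% in KO-ST. The part of cells of these other types in the levels of the imprinted genes was not tested.

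At the *Igf2r*-*Airn* cluster on chromosome 17, *Igf2r* was higher in every IPO13-/- library. It codes for the receptor that takes IGF2 to the lysosome for breakdown, and so acts against the product of *Igf2*. *Igf2r* was measured at 134 and 113 CPM in WT-NS, 127 and 125 in WT-ST, 205 and 199 in KO-NS, and 243 and 235 in KO-ST. The groups of the genotypes did not overlap, with 63.6% more in untreated and 89.3% more in treated IPO13-/- cells. These are log2 fold changes of 0.71 ± 0.05 (SE, FDR = 2.2e-11) and 0.92 ± 0.05 (FDR = 1.3e-13). The 8 expressed neighbours within 500 kb of the cluster had a median log2 fold change of -0.13 in untreated and -0.06 in treated cells, and none of them was called. *Airn* runs antisense to *Igf2r*, and the sources used here do not give the strand setting of the counting, but its 0 to 4 counts per library are few beside the 7911 to 15710 counts of *Igf2r*.

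The 3 maternal non-coding RNAs of the *Dlk1*-*Dio3* cluster on chromosome 12 were lower in IPO13-/- cells after stress, and the first 2 of them also without it. *Meg3* had 51.3 and 43.7 CPM in WT-NS, 49.0 and 51.9 in WT-ST, 35.2 and 28.2 in KO-NS, and 27.9 and 25 in KO-ST. Its log2 fold change was -0.58 ± 0.08 (SE, FDR = 5.5e-07) in untreated and -0.93 ± 0.08 (FDR = 1.8e-10) in treated cells, 33.0% and 47.5% below the IPO13+/+ cells. *Rian*, which hosts small nucleolar RNAs, was lower, at -0.45 ± 0.05 (FDR = 9.6e-09) and -0.62 ± 0.05 (FDR = 3.9e-11) in the same comparisons. *Mirg*, which hosts microRNAs, differed by -0.21 ± 0.10 in untreated cells (FDR = 0.097) and by -0.75 ± 0.11 in treated cells (FDR = 5.5e-06). *Dlk1*, the paternal gene for a transmembrane protein related to the NOTCH ligands, had only 59 to 98 counts, with -0.14 ± 0.16 (FDR = 0.57) in untreated and -0.59 ± 0.16 (FDR = 0.0036) in treated cells. *Dio3*, the paternal deiodinase gene at the far end of the cluster, is not one of the 39 genes and was higher, at 0.51 ± 0.10 (FDR = 0.00017) and 0.62 ± 0.11 (FDR = 5.1e-05). Only 2 neighbours within 500 kb were expressed, with medians of -0.34 and -0.19, and neither was called. Since genes of the second list could be among them, these medians are no measure of genes without imprinting.

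The *Mcts2*-*H13* pair on chromosome 2 diverged between the genotypes. *H13* codes for signal peptide peptidase, and *Mcts2* is a retrogene in an intron of *H13* that is expressed from the paternal allele and is known to affect where *H13* transcripts end. *H13* had 38.1 and 36.8 CPM in WT-NS, 38.0 and 37.4 in WT-ST, 67.4 and 65.3 in KO-NS, and 63.8 and 64.6 in KO-ST. Its level was 77.2% higher in untreated and 70.2% higher in treated IPO13-/- cells, with log2 fold changes of 0.83 ± 0.05 (SE, FDR = 4.5e-14) and 0.77 ± 0.05 (FDR = 2.7e-13). *Mcts2* had 21.5 and 21.9 CPM in WT-NS, 22.0 and 22.8 in WT-ST, 15.8 and 17.4 in KO-NS, and 15.4 and 17.1 in KO-ST. It was lower, at -0.39 ± 0.06 (FDR = 9.6e-06) and -0.47 ± 0.06 (FDR = 7.5e-07) on the log2 scale. *Mcts2* derives from *Mcts1*, and the sources used here do not say how reads that match both copies were counted, so its level is uncertain to that extent.

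Chromosome 2 as a whole moved with genotype, which touches *H13*, *Mcts2*, *Gnas* and *Nnat*. The median log2 fold change of its 1237 genes with at least 10 counts was 0.28 in untreated and 0.29 in treated cells, 0.30 and 0.31 above that of the other chromosomes. With this median taken off, *H13* was at 0.55 and 0.47, and *Gnas* at 0.18 and 0.30, on the log2 scale. The 12 expressed neighbours of the *Mcts2*-*H13* pair had medians of 0.24 and 0.27, and in each comparison 1 of them was called lower and 0 higher. *Mcts2* and *Nnat* were lower in IPO13-/- cells and so went against their chromosome. The part of the chromosome in the levels of *H13* and *Gnas* was not tested further. The medians of chromosomes 6, 7, 11, 12 and 17, which hold most of the other genes, lay between -0.03 and -0.01 in both comparisons.

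*Gnas*, which codes for the stimulatory G protein alpha subunit and yields transcripts of either parental origin from different promoters, had 145 and 143 CPM in WT-NS, 144 and 138 in WT-ST, 195 and 200 in KO-NS, and 212 and 213 in KO-ST. The log2 fold change was 0.46 ± 0.04 (SE, FDR = 5.4e-10) in untreated and 0.60 ± 0.04 (FDR = 3e-12) in treated cells. The transcripts of the locus are counted under 1 symbol, and the antisense *Nespas*, which overlaps 988 bases of its exons, had 132 to 284 counts. *Nnat*, the gene for neuronatin of the endoplasmic reticulum, was at -0.45 ± 0.07 (FDR = 8.7e-06) and -0.25 ± 0.07 (FDR = 0.0075).

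In the *Grb10*-*Ddc* cluster on chromosome 11, *Ddc*, known for paternal expression, codes for the decarboxylase that makes dopamine and serotonin. *Ddc* had the largest fall of the genes with a mean of at least 1 CPM in untreated IPO13-/- cells. It had 11.8 and 12.3 CPM in WT-NS, 12.6 and 13.3 in WT-ST, 6.99 and 6.94 in KO-NS, and 6.95 and 7.89 in KO-ST. The log2 fold changes were -0.79 ± 0.07 (SE, FDR = 1e-09) and -0.81 ± 0.07 (FDR = 6.8e-10), and no IPO13-/- library reached the lowest IPO13+/+ library. *Grb10*, an adaptor that damps insulin signalling, was slightly higher in treated IPO13-/- cells, with 0.24 ± 0.04 (FDR = 3.4e-05), and was at 0.09 ± 0.04 in untreated cells (FDR = 0.093). The 2 expressed neighbours within 500 kb of these genes, from which the second list was again not left out, had medians of -0.33 and -0.31. Neither was called. *Zrsr1*, a paternal splicing factor gene on the same chromosome, was lower in both comparisons, with -0.47 ± 0.05 (FDR = 2.8e-08) and -0.62 ± 0.05 (FDR = 1.5e-10). It is a retrogene inside *Commd1* and overlaps 412 bases of the exons of that gene on the other strand.

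Differences were small in the other clusters. In the Prader-Willi/Angelman region of chromosome 7, *Ndn*, a growth-restraining gene of neurons, was higher by 0.33 ± 0.07 (SE, FDR = 0.00033) and 0.35 ± 0.07 (FDR = 0.00019) on the log2 scale. Its neighbour *Magel2* was lower in treated cells, at -0.54 ± 0.15 (FDR = 0.006), *Mkrn3* and *Peg12* were higher in untreated cells, at 0.28 ± 0.08 (FDR = 0.0077) and 0.21 ± 0.08 (FDR = 0.039), and *Ube3a*, a ubiquitin ligase gene that is imprinted in neurons, was lower by 8.2% and 8.0%. *Zdbf2* on chromosome 1 was lower by 18.2% and 19.1% (FDR = 0.00036 and 0.00022). *Peg3*, which codes for a zinc-finger protein, and *Peg10* were lower in treated cells, by 13.8% and 12.1% (FDR = 0.0021 and 0.0082). *Mest* was lower in untreated cells, by 13.4% (FDR = 0.00021), and *Copg2* was higher in treated cells, by 12.8% (FDR = 0.0036). These 2 genes overlap by 912 bases of exon on opposite strands. *Ppp1r9a*, the gene for neurabin, was higher in untreated cells by 18.4% (FDR = 0.0023). *Usp29*, *Zim1*, *Sgce*, *Asb4* and *Plagl1* did not pass in either comparison, with log2 fold changes between -0.42 and 0.27.

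Genes known for either parental allele were found among those that were higher and those that were lower. The allele in use in these cells was not measured, and some of the genes are imprinted only in certain tissues. Of 16 genes known for maternal expression, 5 passed the FDR as higher and 6 as lower in KO-NS, and 6 and 5 did in KO-ST. Of 22 genes known for paternal expression, 3 passed as higher and 8 as lower in KO-NS, and 2 and 11 did in KO-ST. Of all genes, 18.7% passed as higher and 19.4% as lower in KO-NS, and 19.1% and 17.5% in KO-ST. Well expressed genes pass more often, with 53.5% and 50.9% in either direction among those with a mean of at least 1 CPM. Shares by direction were not taken among those. Median log2 fold changes were -0.12 for the maternal and -0.20 for the paternal genes in untreated cells, and -0.12 and -0.28 in treated cells. The difference between the alleles was not tested.

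The comparison of treated with untreated cells asked how the imprinted genes responded to oxidative stress. In IPO13+/+ cells none of the 39 was called, against 2.9% of all genes tested, by edgeR, limma-voom or DESeq2, although 18 had an unadjusted p below 0.05 in edgeR, none of them with a 2-fold change. In IPO13-/- cells 1 was called, *Peg12*, against 2.89% of all genes. Without the 2-fold limit, 14 of the 39 (35.9%) passed in IPO13+/+ cells, against 25.3% of all genes, and 9 of them rose (11.5% of all genes did) and 5 fell (13.8%). In IPO13-/- cells 18 (46.2%) passed, against 29.4%, and 8 rose (14.9%) and 10 fell (14.4%). Among the genes with a mean of at least 1 CPM, 36.4% of the 33 imprinted genes and 36.4% of all genes passed in IPO13+/+ cells. In IPO13-/- cells the shares were 51.5% and 42.3%. As a median the 39 genes lay at 0.01 in IPO13+/+ cells and at 0.06 on the log2 scale in cells without IPO13. The comparisons within the genotypes share no library, and *Zim1*, *Slc22a18* and *Impact* rose while *Peg12*, *Peg10* and *Ube3a* fell in both of them, 3 genes in each direction, against 8.46% of all genes in each direction. They do share their libraries with the genotype comparisons above.

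**Figure D4:**
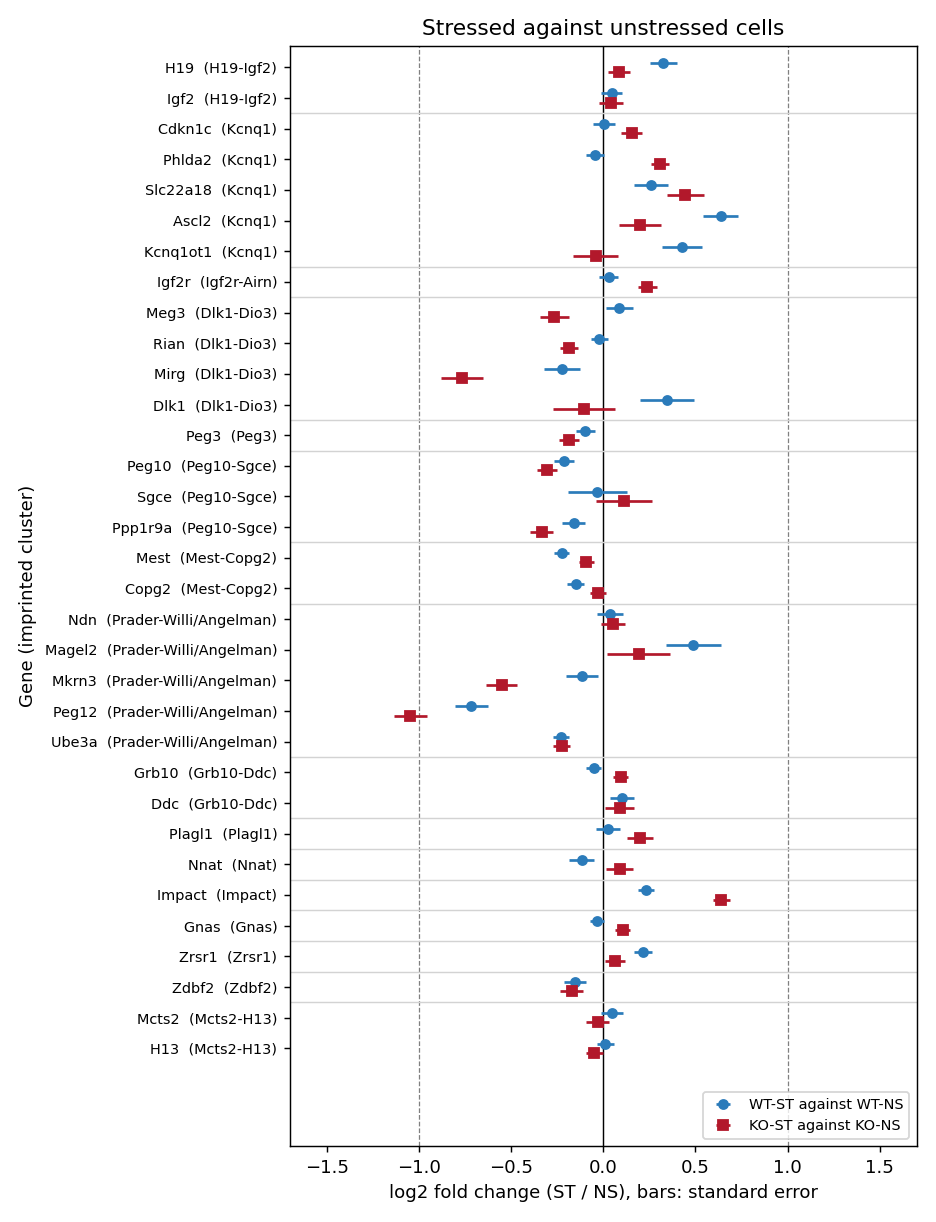
Points are log2 fold changes of treated against untreated cells in IPO13+/+ (circles) and IPO13-/- (squares) cells, with bars of 1 standard error, and dashed lines mark a 2-fold change. Most genes lie close to 0, *Peg12* is lowest in both genotypes, and *Impact*, *Phlda2* and *Mirg* are the genes whose circle and square differed by the interaction test.

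*Peg12*, a paternal gene of the FRAT family whose proteins bind the kinase GSK3 in the WNT pathway, fell most among the genes with a mean of at least 1 CPM. It had 440 and 500 counts in WT-NS, 297 and 275 in WT-ST, 606 and 486 in KO-NS, and 228 and 257 in KO-ST. The group means were 6.85 ± 0.410 CPM (SD, n = 2), 4.17 ± 0.273, 7.92 ± 0.123 and 3.84 ± 0.448 in the same order, and every treated library was below every untreated one. The log2 fold change after stress was -0.72 ± 0.09 (SE, FDR = 4.1e-07) in IPO13+/+ cells and -1.05 ± 0.09 (FDR = 3.4e-10) in IPO13-/- cells, and the difference between the genotypes did not pass (interaction FDR = 0.18). Without KO-ST replicate 1 the log2 fold change in IPO13-/- cells was -0.92, which is under 2-fold. *Mkrn3*, its neighbour in the Prader-Willi/Angelman region, fell in IPO13-/- cells, from 6.02 and 6.49 to 4.31 and 4.20 CPM, with -0.55 ± 0.09 (FDR = 1.4e-05). In IPO13+/+ cells *Mkrn3* was at -0.11 ± 0.09 (FDR = 0.40), and the interaction was just above the threshold (FDR = 0.051). *Magel2* of the same region rose in IPO13+/+ cells by 0.49 ± 0.15 (FDR = 0.016), and *Ube3a* fell by 14.7% and 14.5% in the genotypes.

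*Impact* rose in both genotypes. Its protein restrains the kinase GCN2, which senses a shortage of amino acids. The 2 libraries of each group held 9516 and 9087 counts in WT-NS, 10812 and 11063 in WT-ST, 9004 and 7362 in KO-NS, and 12373 and 11093 in KO-ST. As group means these were 136 ± 8.57 CPM (SD, n = 2), 159 ± 0.814, 119 ± 0.218 and 185 ± 8.32. The rise was 17.5% in IPO13+/+ cells, with a log2 fold change of 0.23 ± 0.04 (SE, FDR = 0.00027), and 56.0% in IPO13-/- cells, with 0.64 ± 0.05 (FDR = 7.9e-12). The level was lower in KO-NS than in WT-NS, by 12.5% (FDR = 0.0011), and higher in KO-ST than in WT-ST, by 16.1% (FDR = 0.00032).

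In the *Peg3* cluster, the weakly expressed *Usp29*, a deubiquitinase gene, and *Zim1*, a maternal zinc-finger gene, rose. *Usp29* had 55 and 55 counts in WT-NS, 88 and 97 in WT-ST, 49 and 57 in KO-NS, and 67 and 61 in KO-ST, with a log2 fold change of 0.75 ± 0.17 (SE, FDR = 0.0015) in IPO13+/+ cells and 0.39 ± 0.19 (FDR = 0.13) in IPO13-/- cells. *Zim1* had 26 and 39, 52 and 59, 31 and 29, and 48 and 42 counts in the same order, with 0.77 ± 0.22 (FDR = 0.0097) and 0.70 ± 0.23 (FDR = 0.023). Its treated libraries were above its untreated ones in each genotype, but the test rested on single libraries. In IPO13+/+ cells *Zim1* did not pass without WT-NS replicate 1 or without WT-ST replicate 2 (FDR = 0.134 and 0.0971), and without WT-NS replicate 2 it was called, at 1.06. In IPO13-/- cells it did not pass without any of the 4 libraries (FDR = 0.0575 to 0.192). Some exons of *Usp29* overlap the antisense *Zim3*, which had 8 to 19 counts.

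**Figure D5:**
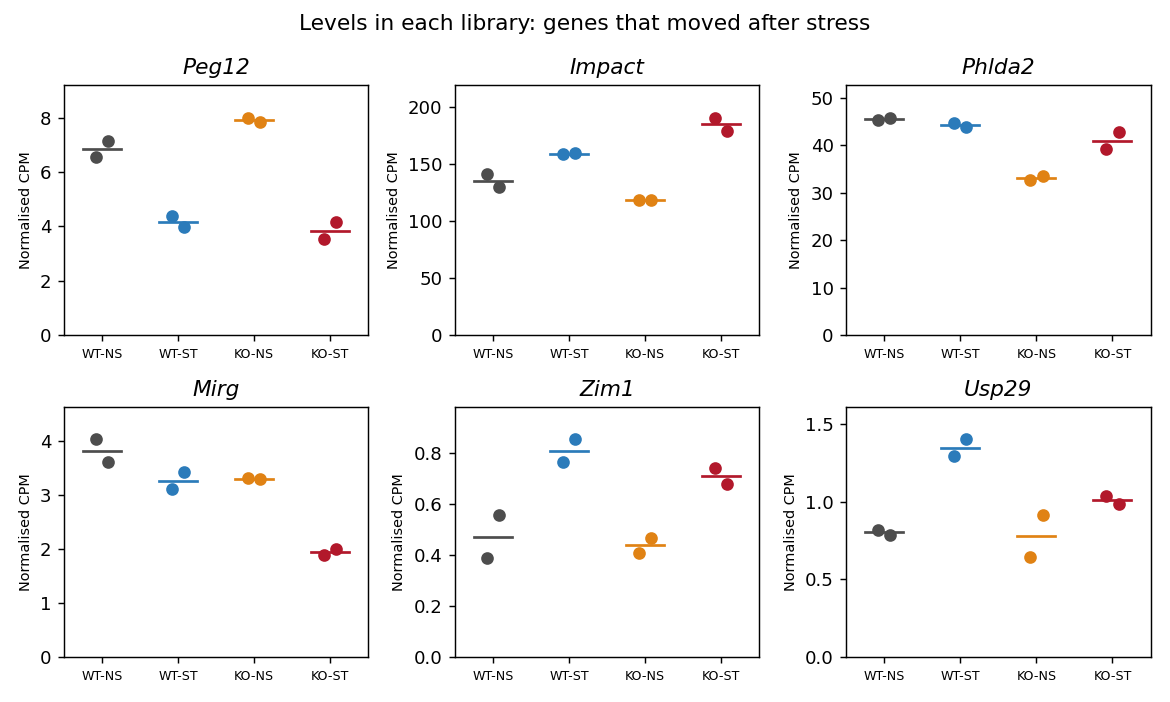
Normalised CPM of 6 imprinted genes in each library (points, 2 per group) with the group mean (line), each axis starting at 0. *Peg12* is lower and *Impact*, *Zim1* and *Usp29* are higher in the treated groups of both genotypes, though *Usp29* passed the test in IPO13+/+ cells but not in IPO13-/- cells, *Phlda2* is lowest in KO-NS, and *Mirg* is lowest in KO-ST.

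In the *Kcnq1* cluster, genes rose in 1 genotype or in both. *Ascl2* rose by 0.64 ± 0.10 on the log2 scale (SE, FDR = 1e-05) in IPO13+/+ cells and was at 0.20 ± 0.11 (FDR = 0.21) in IPO13-/- cells, and *Kcnq1ot1* rose by 0.43 ± 0.11 (FDR = 0.0041) in IPO13+/+ cells and was at -0.04 ± 0.12 (FDR = 0.86) in IPO13-/- cells. Neither difference between the genotypes passed (interaction FDR = 0.12 and 0.13). *Slc22a18* rose by 0.26 ± 0.09 (FDR = 0.035) and 0.45 ± 0.10 (FDR = 0.00095), the latter with an FDR of 0.0668 without KO-NS replicate 1 and 0.0514 without KO-ST replicate 2. *H19* rose by 25.4% in IPO13+/+ cells (FDR = 0.001), where WT-NS replicate 1 was the lowest of all libraries, and was at 0.09 ± 0.06 on the log2 scale in IPO13-/- cells (FDR = 0.34). *Igf2* was at 0.05 ± 0.06 and 0.04 ± 0.07 (FDR = 0.64 and 0.69).

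Further genes passed the FDR after stress with changes under 2-fold. *Peg10* fell by 13.9% in IPO13+/+ cells (FDR = 0.0039) and by 19.2% in IPO13-/- cells (FDR = 7.7e-05), *Mest*, a hydrolase gene of mesoderm, fell by 14.5% in IPO13+/+ cells (FDR = 0.00015), and *Ppp1r9a* fell by 20.6% in IPO13-/- cells (FDR = 0.00015, and 0.0503 without KO-NS replicate 1). *Igf2r* rose by 18.0% in IPO13-/- cells (FDR = 0.00081) and was at 0.03 ± 0.05 on the log2 scale in IPO13+/+ cells. *Meg3*, *Rian* and *Mirg* fell in IPO13-/- cells, by 16.8% for *Meg3*, 12.1% for *Rian* and 41.2% for *Mirg* (FDR = 0.012, 0.0036 and 5.7e-06), and did not pass in IPO13+/+ cells, where they were at 0.09, -0.02 and -0.22. *Plagl1*, a zinc-finger factor gene, rose in IPO13-/- cells by 14.8% (FDR = 0.028) and *Cdkn1c* by 11.3% (FDR = 0.045). In IPO13+/+ cells *Zrsr1* rose by 16.2% (FDR = 0.0014) and *Copg2*, a coat protein gene of Golgi vesicles, fell by 9.8% (FDR = 0.017). *Gnas* in IPO13-/- cells rose by 7.6% (FDR = 0.045), *Peg3* fell by 11.9% (FDR = 0.01) and *Zdbf2* fell by 11.2% (FDR = 0.036). *Igf2*, *Airn*, *Dlk1*, *Rtl1*, *Snrpn*, *Sgce*, *Asb4* and *Grb10* passed in neither genotype. *H13*, *Mcts2*, *Ddc*, *Ndn* and *Nnat* did not pass in either genotype, with log2 fold changes between -0.12 and 0.10.

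Whether the response to stress differed between the genotypes was tested as an interaction, the log2 response in IPO13-/- cells minus that in IPO13+/+ cells. It passed an FDR of 0.05 in 3 of the 39 genes (7.69%), against 2.71% of all genes, and in 9.09% of the 33 genes with a mean of at least 1 CPM, against 4.2% of all such genes. *Impact* had the smallest FDR of the 3, with an interaction of 0.41 ± 0.06 (SE, FDR = 0.00025). *Phlda2* had 3044 and 3212 counts in WT-NS, 3039 and 3027 in WT-ST, 2479 and 2077 in KO-NS, and 2541 and 2644 in KO-ST, or 45.6 ± 0.341 CPM (SD, n = 2), 44.2 ± 0.616, 33.1 ± 0.510 and 41.0 ± 2.47. In IPO13+/+ cells it was at -0.04 ± 0.05 (FDR = 0.60), and rose by 0.31 ± 0.05 (FDR = 2.2e-05) in IPO13-/- cells from a lower level, with an interaction of 0.35 ± 0.07 (FDR = 0.0035). *Mirg* had 270 and 252, 211 and 236, 250 and 204, and 122 and 123 counts, or 3.81 ± 0.302, 3.26 ± 0.222, 3.29 ± 0.0107 and 1.94 ± 0.0737 CPM, so that KO-ST was below all other groups. Its interaction was -0.54 ± 0.15 (FDR = 0.048), just inside the threshold. None of these passed without KO-NS replicate 1, when the FDRs were 0.0721 for *Impact*, 0.161 for *Phlda2* and 0.268 for *Mirg*. *Impact* alone of the 39 passed without WT-ST replicate 2, KO-NS replicate 2 or KO-ST replicate 2, and 5 and 6 genes passed without WT-NS replicate 2 and 1. Taking the replicate number as a block gave 8, *H19*, *Igf2r*, *Kcnq1ot1*, *Meg3* and *Mkrn3* besides these 3.

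A second list of 45 genes described as imprinted in some tissue, of which 43 were tested, held 1 call in KO-NS and 2 in KO-ST, against 4.71% and 4.56% of all genes. After stress 1 was called in IPO13+/+ cells, against 2.9% of all genes, and 0 in IPO13-/- cells, against 2.89%. Without the 2-fold limit, 10 passed the FDR as higher and 9 as lower in KO-NS, against 18.7% and 19.4% of all genes, and 10 and 9 in KO-ST, against 19.1% and 17.5%. Of those under 2-fold, *Gab1*, an adaptor of growth factor receptors, was at -0.92 ± 0.04 (SE, FDR = 2.9e-15) and -0.86 ± 0.04 (FDR = 1.4e-14). *Tnfrsf23*, a decoy receptor gene at the edge of the *Kcnq1* cluster, was higher in IPO13-/- cells, with 19 and 31 counts in WT-NS, 26 and 26 in WT-ST, 81 and 64 in KO-NS, and 91 and 68 in KO-ST. Its log2 fold changes were 1.52 ± 0.22 (SE, FDR = 3.6e-06) and 1.72 ± 0.22 (FDR = 3.4e-07). *Sfmbt2*, a Polycomb gene known for paternal expression, was lower, with 2988 and 3103 counts in WT-NS, 2535 and 2627 in WT-ST, 2008 and 1488 in KO-NS, and 1183 and 1032 in KO-ST, and was called in treated cells at -1.11 ± 0.06 (FDR = 1.3e-14). *Sfmbt2* also had the only interaction of the list, -0.29 ± 0.08 (FDR = 0.041), against 2.71% of all genes. *Osbpl5*, a lipid-binding protein gene of the *Kcnq1* cluster, was called higher after stress in IPO13+/+ cells, from 70 and 77 to 164 and 176 counts, with 1.21 ± 0.13 (FDR = 4.6e-08). In IPO13-/- cells it went from 111 and 89 to 179 and 153 counts, with 0.85 ± 0.12 (FDR = 4.3e-06), under 2-fold. No other gene of this list was called, and its median log2 fold change was 0.06 and 0.00 between genotypes and 0.01 and 0.02 after stress.

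Of 20 genes that set, keep or erase imprints, 1 was called in each genotype comparison, against 4.71% and 4.56% of all genes. Without the 2-fold limit, 8 passed as higher and 6 as lower in KO-NS, against 18.7% and 19.4% of all genes, and 5 and 7 in KO-ST, against 19.1% and 17.5%. Of the genes with a mean of at least 1 CPM, 53.5% passed in either direction in KO-NS and 50.9% in KO-ST. *Ctcfl*, a relative of the insulator protein gene *Ctcf* that is normally active in the male germ line, had 2 and 5 counts in WT-NS, 5 and 6 in WT-ST, 40 and 41 in KO-NS, and 29 and 32 in KO-ST. It was called higher in both comparisons (FDR = 1.2e-07 and 8.6e-06), and no fold change is given because the IPO13+/+ libraries lie close to the counting floor. *Ctcf* itself was at -0.06 ± 0.04 in both comparisons (FDR = 0.25 and 0.29). *Tet3* and *Tet2*, dioxygenases that oxidise methylated cytosine, were lower in IPO13-/- cells by less than 2-fold, with -0.45 ± 0.07 (SE, FDR = 5.7e-06) and -0.92 ± 0.07 (FDR = 2.2e-11) for *Tet3*, and -0.44 ± 0.06 (FDR = 2.2e-06) and -0.65 ± 0.06 (FDR = 4.3e-09) for *Tet2*. *Tet3* had the only interaction of the list, -0.47 ± 0.10 (FDR = 0.0049), with 0.32 ± 0.06 after stress in IPO13+/+ cells and -0.15 ± 0.07 in IPO13-/- cells. None of the 20 was called after stress in either genotype, against 2.9% and 2.89% of all genes. Without the 2-fold limit, 10 passed as lower and 1 as higher in IPO13+/+ cells, against 13.8% and 11.5% of all genes, and 11 as lower and 0 as higher in IPO13-/- cells, against 14.4% and 14.9%. Of the genes with a mean of at least 1 CPM, 36.4% passed in either direction in IPO13+/+ cells and 42.3% in IPO13-/- cells. Their shares by direction were not taken. The median of the list was 0.01 and -0.06 between genotypes and -0.14 and -0.17 after stress, on the log2 scale.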

How the data were processed

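The mRNA libraries were placed by their labels in 4 groups of 2. The authors deposited raw read counts per gene symbol without normalization, and the same values as CPM, each count scaled to the library total, and these CPM were only checked against the counts. The submitters' processing notes name mm10, bcl2fastq, STAR 2.3.1, HTSeq and limma, and the strand setting and annotation of the counting are not given in the sources used here. Genes without a count in any library were left out, and the other 19424 were fitted together with edgeR 4.0.16 (R 4.3.3), with TMM factors, 1 coefficient per group and the quasi-likelihood test, and p-values were adjusted over all genes by the Benjamini-Hochberg method (FDR). The biological coefficient of variation was 3.36%. Calls needed an FDR below 0.05 with a 2-fold change or more in either direction, and interactions the FDR only. Standard errors were taken from the F statistic, as the size of the log2 fold change over its square root. CPM in the text are TMM-normalized, with SD over 2 libraries. Replicates differed beyond sampling noise, with a chi-square statistic per gene of 15 in WT-NS, 2.26 in WT-ST, 4.58 in KO-NS and 6.59 in KO-ST. The fit shared its estimate of the spread over the 4 groups. Standard errors and FDRs of comparisons with WT-NS, and of the interaction, may therefore understate the spread of WT-NS.

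Alternatives were limma-voom (limma 3.58.1), DESeq2 1.42.0, library totals alone or relative log expression factors in place of TMM, filterByExpr (15191 genes), the replicate number as a block, each library left out, fits of only the 4 libraries compared, and fold changes minus the chromosome median. Exons and positions came from GENCODE M21 on GRCm38, where 21712 symbols matched, and promoters from RefSeq. Counts in each library are given for genes that were called, and up to 6 examples, the largest in each direction, for those under 2-fold; further members, and genes of other lists that were not called, were named after their values were seen. The members and lists were chosen with earlier results of these data known, and the background of genes with a mean of at least 1 CPM was added after the data were examined.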

Additional observations from a re-analysis of the deposited data

Results flagged for a closer look

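The response to stress differed between the genotypes, by the test of the difference itself, for 3 imprinted genes. The interaction on the log2 scale was 0.41 for *Impact*, 0.35 for *Phlda2* and -0.54 for *Mirg*, with FDRs of 0.00025, 0.0035 and 0.048 from edgeR's quasi-likelihood test. *Impact* rose in both genotypes, and more in IPO13-/- cells. *Phlda2* rose in IPO13-/- cells, where its untreated level was below that of IPO13+/+ cells. *Mirg* fell in IPO13-/- cells. *Impact* and *Phlda2* passed with limma-voom and DESeq2 as well, and *Mirg* did not. Of 14 alternatives, which include fits with 1 library left out, *Impact* passed in 13, *Phlda2* in 10 and *Mirg* in 4. No cause of these differences was tested.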

How the results depend on the processing

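Of 30 named log2 fold changes, compared with their alternatives 461 times, 434 kept their direction and still passed, 27 kept their direction but no longer passed, and none reversed. Passing meant the FDR alone for values under 2-fold, and the FDR with the 2-fold limit for called ones. Where the chromosome median was taken off, the FDR of the main fit was kept. Genotype differences under 2-fold could therefore not stop passing in that alternative, and only their direction and size could change. In a comparison of 2 groups, leaving out a library of another group moved the fold change little. Without WT-ST replicate 1, *H19* in KO-NS against WT-NS stayed at 1.42. Without KO-NS replicate 1, *Mest* after stress in IPO13+/+ cells went from -0.23 to -0.20. Such fits are among the 461, so the 434 overstate how far the values were put to the test. *Meg3* in KO-ST against WT-ST reached 2-fold without KO-ST replicate 1 (-1.01) and *Zim1* after stress in IPO13+/+ cells without WT-NS replicate 2 (1.06). Without the 2-fold limit, the genes that passed numbered 23 in KO-NS against WT-NS, 25 in KO-ST against WT-ST, 14 after stress in IPO13+/+ and 18 in IPO13-/- cells, in place of 1, 1, 0 and 1. The 3 interactions became 5 with relative log expression factors and 6 with library totals alone, and 2, *Impact* and *Phlda2*, with limma-voom, DESeq2 or filterByExpr. Leaving out 1 library at a time, the calls ranged from 1 to 1 in KO-NS against WT-NS, 1 to 3 in KO-ST against WT-ST (3 without KO-ST replicate 1, *Meg3* and *Kcnq1ot1* joining *H19*), 0 to 1 after stress in IPO13+/+ cells (1 without WT-NS replicate 2, *Zim1*), 0 to 1 in IPO13-/- cells (0 without KO-ST replicate 1), and 0 to 6 for the interaction. The interactions numbered 0 without KO-NS replicate 1, 1 without WT-ST replicate 2, KO-NS replicate 2 or KO-ST replicate 2, 5 without WT-NS replicate 2 and 6 without WT-NS replicate 1. A group left with 1 library was assumed to vary like the others. The interaction of *Mirg* passed in 4 of 14 alternatives, with FDRs between 0.016 and 0.268, that of *Phlda2* in 10 of 14, with FDRs up to 0.161, and that of *Impact* in 13 of 14. The cause was not tested. *Zim1* after stress no longer passed in 3 of 15 alternatives in IPO13+/+ and 5 of 15 in IPO13-/- cells.

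In a fit with a replicate block, 8 interactions passed in place of 3, and the other counts were as without it. Deviations of same-numbered libraries from their group means correlated across 9907 genes at 0.32 between WT-NS and KO-NS, 0.572 between WT-NS and KO-ST and 0.284 between KO-NS and KO-ST, and at -0.032, -0.0626 and 0.00343 between WT-ST and WT-NS, KO-NS and KO-ST. Since 3 of the 6 pairs of groups were not above 0.1, the numbers were not taken to pair the samples.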
